A study of Mus musculus with 2 samples.

Results

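Chemokines are small secreted proteins that steer leukocytes, and chemokine receptors are the G protein-coupled receptors that read them. The family was taken from the deposited gene table by name: a row was a member if its symbol began with Ccl, Cxcl, Cx3cl or Xcl (ligands) or with Ccr, Cxcr, Cx3cr or Xcr (receptors), followed by a digit. This gave 59 of 23283 gene rows, 39 for ligands and 20 for receptors. RNA came from male C57Bl/6 mice aged 6 months, whose livers had been perfused, of 2 genotypes: Akt1F/F;Akt2-/- (the control library) and Akt1F/F;Akt2-/-;Alb-Cre (the Alb-Cre library). Mice of both groups were thus labelled as lacking Akt2 throughout the body and as carrying floxed Akt1, and the second group also carried Cre recombinase under the albumin promoter, which acts in hepatocytes. Akt1 and Akt2 are kinases of insulin and growth factor signalling. The mRNA of 4 livers was pooled into 1 library per genotype, so there were 2 libraries, no value has a replicate error and no test between genotypes was possible. The comparison asks, by its labels, how an Akt2-null liver differs when Akt1 is also targeted in hepatocytes.

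The name of each chemokine class comes from the spacing of its first cysteines: they are adjacent in CC ligands and parted by 1 residue in CXC ligands. Inflammatory ligands such as CCL2, CCL5 and CXCL10 are induced in macrophages, endothelium and hepatocytes by cytokines and microbial products. Homeostatic ligands such as CXCL12 are made steadily by stroma and endothelium and hold cells in place. Receptors are carried mostly by leukocytes, a minor share of the cells in liver, so their transcripts are scarce in whole tissue.

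The unit is the authors' FPKM, which scales fragments by transcript length and sequencing depth and so allows levels of different genes to be set side by side. The lowest values fell on steps, and from 156 control and 172 Alb-Cre rows at the first step 1 FPKM in a 1 kb transcript was estimated to stand for about 122 reads in control and about 138 in Alb-Cre liver. Read numbers given below as about so many are this estimate times transcript length, and are too high for short transcripts. In libraries of this depth a row below 1 FPKM can still rest on many reads. Akt1 had 23.7 FPKM in control and 17.1 in Alb-Cre liver, and Akt2 had 37.5 and 33.5. These values cover whole genes, and the sources used here do not give the exons that the alleles remove, so the values say little about the labels. The hepatocyte markers Ttr, Cps1, Cebpa, Hnf4a and Tat, which define the labelled tissue, were at 153 FPKM or more in each library.

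Most of the ligand FPKM of both libraries came from a few genes. CXCL12, the ligand of CXCR4 that retains haematopoietic cells in their niche, led: Cxcl12 (mm10 chromosome 6, 117168535 to 117181367) had 171 FPKM in control and 130 in Alb-Cre liver, a log2 ratio of -0.39 with 1 FPKM added to each value. Ccl9, which encodes a rodent CC ligand of CCR1 (chromosome 11, 83572919 to 83578636), had 31.4 and 44.7 FPKM (log2 ratio 0.49). Cxcl1, a neutrophil attractant read by CXCR2 (chromosome 5, 90891241 to 90893115), had 25.4 and 19.3 FPKM (-0.38). These 3 genes held 86.2% of the summed ligand FPKM in control and 75.0% in Alb-Cre liver, with Cxcl12 alone going from 64.7% to 50.3%. Summed over all 39 ligand rows, the FPKM was 265 in control and 259 in Alb-Cre liver. Without the leading 3 the sums were 36.5 and 64.7, a ratio of 1.77, so the flat total covered lower Cxcl12 and Cxcl1 beside higher Ccl9 and a higher sum of the less abundant ligands. In whole liver, more cells of a type and more RNA per cell cannot be told apart.

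**Figure D1:**
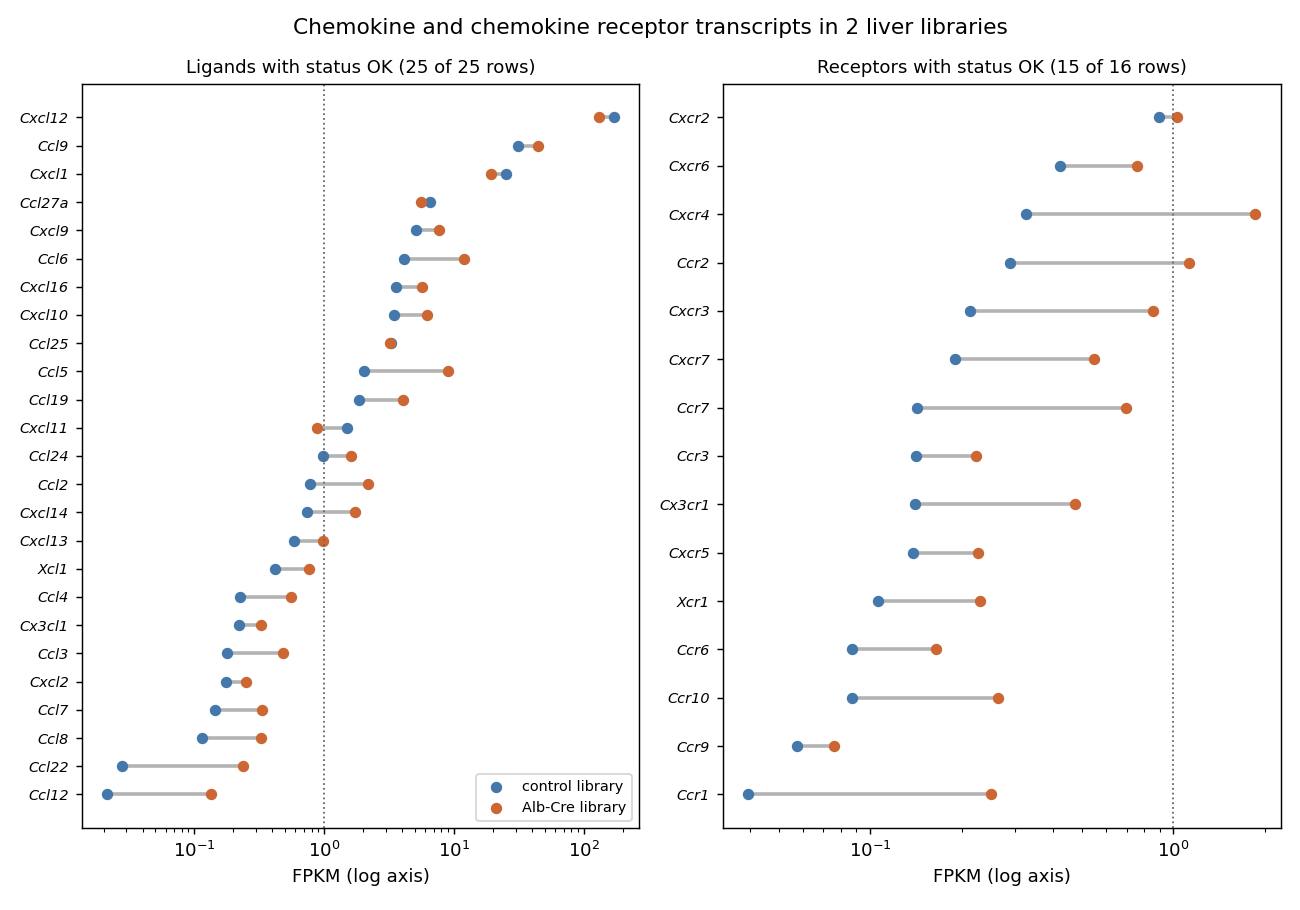
FPKM on log axes of the 25 ligand rows and 15 of the 16 receptor rows that the deposited table marks as having enough reads, with a blue point for the control library and an orange point for the Alb-Cre library. The control points of the receptors drawn all lie left of the dotted line at 1 FPKM, and orange points lie to the right of blue ones in 20 ligand rows and in the 15 receptor rows drawn.

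The 2-fold limit on the log2 ratio with 1 FPKM added was passed upward by Ccl5, Ccl6 and Cxcr4. They were 3 of the 19 members measured, where measured means enough reads for the authors' test and 1 FPKM or more in at least 1 library, and none was 2-fold lower. Among all 11406 rows measured in this way, 3.75% were 2-fold higher and 1.83% were 2-fold lower. Of the 19, 12 reached 1 FPKM in both libraries, 6 reached it in the Alb-Cre library alone and 1 in the control library alone. Cxcr4 is one of the 6, and such a member had to be higher in the library that let it pass.

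Ccl5 (RANTES), an inflammatory ligand made by T cells, NK cells and macrophages (chromosome 11, 83525778 to 83530518), had 2.03 FPKM in control and 9.06 in Alb-Cre liver, the largest log2 ratio among the measured members, 1.73. By the depth estimate these were about 131 and 663 reads. Ccl6, a rodent CC ligand of CCR1 and a close relative of Ccl9 (chromosome 11, 83587882 to 83593087), had 4.14 and 11.98 FPKM (log2 ratio 1.33), about 726 and 2372 reads. Ccl5 moved from the 10th to the 5th place among ligands by level and Ccl6 from the 6th to the 4th. Both lie with Ccl9, Ccl3 and Ccl4 in a stretch of chromosome 11 from 83525778 to 83664683, and all 5 members of that stretch were higher in the Alb-Cre library. Ccl3 and Ccl4, which encode macrophage inflammatory proteins, stood at 0.177 and 0.478 FPKM and at 0.227 and 0.556 FPKM. At such levels, under 1 FPKM in both libraries, 73.4% of all rows with enough reads were higher. At 1 FPKM or more in both, where Ccl5, Ccl6 and Ccl9 lie, 38.1% were higher. Ccl9, the most abundant of the 5, had the smallest plain ratio (the ratio of FPKM with nothing added), 1.42.

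Promoters are shown for the 3 most abundant ligands, for the 2-fold higher members with an entry, Ccl6 and Cxcr4, and for Cxcl10, a ligand named for its induction by interferon. They run from 250 bases before to 50 bases after the RefSeq start site on GRCm38.p6, the assembly that mm10 names, and are written 5′ to 3′ on the gene's strand. Capitals mark matches to any of 3 letter patterns: GGGNNTTTCC, a form of the NF-κB site, and GAAANNGAAA, a form of the interferon response element, both searched on both strands, and TATAAA, the core of the box that positions transcription starts, searched on the gene's strand.
Cxcl12 promoter, chr6:117168285-117168584, plus strand: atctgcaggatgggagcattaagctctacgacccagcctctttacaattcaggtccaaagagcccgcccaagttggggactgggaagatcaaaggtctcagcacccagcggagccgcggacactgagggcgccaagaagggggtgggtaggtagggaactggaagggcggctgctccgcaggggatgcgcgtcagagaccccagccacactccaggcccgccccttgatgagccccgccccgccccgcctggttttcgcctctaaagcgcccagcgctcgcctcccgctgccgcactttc
Ccl9 promoter, chr11:83578587-83578886, minus strand: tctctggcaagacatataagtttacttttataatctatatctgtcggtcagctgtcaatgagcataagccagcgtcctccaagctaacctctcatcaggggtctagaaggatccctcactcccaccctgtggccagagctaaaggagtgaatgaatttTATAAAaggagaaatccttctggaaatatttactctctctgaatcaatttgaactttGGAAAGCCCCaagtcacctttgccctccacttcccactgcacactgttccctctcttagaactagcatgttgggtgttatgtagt
Cxcl1 promoter, chr5:90890995-90891294, plus strand: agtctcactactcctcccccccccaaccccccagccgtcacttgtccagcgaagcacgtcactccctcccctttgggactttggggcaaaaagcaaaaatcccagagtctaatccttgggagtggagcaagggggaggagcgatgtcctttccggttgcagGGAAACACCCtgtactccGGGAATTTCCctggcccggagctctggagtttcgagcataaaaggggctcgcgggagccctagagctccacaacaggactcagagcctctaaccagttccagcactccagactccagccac
Ccl6 promoter, chr11:83593038-83593337, minus strand: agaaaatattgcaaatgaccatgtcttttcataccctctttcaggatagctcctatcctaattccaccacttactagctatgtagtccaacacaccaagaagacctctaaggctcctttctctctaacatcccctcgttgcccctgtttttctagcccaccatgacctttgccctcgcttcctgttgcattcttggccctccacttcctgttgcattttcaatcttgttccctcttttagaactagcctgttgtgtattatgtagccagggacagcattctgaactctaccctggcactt
Cxcr4 promoter, chr1:128592250-128592549, minus strand: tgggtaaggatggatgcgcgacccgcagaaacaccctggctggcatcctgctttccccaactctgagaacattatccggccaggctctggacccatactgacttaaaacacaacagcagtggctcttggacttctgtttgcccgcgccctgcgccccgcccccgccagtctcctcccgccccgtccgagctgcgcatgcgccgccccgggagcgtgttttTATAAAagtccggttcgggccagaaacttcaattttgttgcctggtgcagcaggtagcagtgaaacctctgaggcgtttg
Cxcl10 promoter, chr5:92348840-92349139, minus strand: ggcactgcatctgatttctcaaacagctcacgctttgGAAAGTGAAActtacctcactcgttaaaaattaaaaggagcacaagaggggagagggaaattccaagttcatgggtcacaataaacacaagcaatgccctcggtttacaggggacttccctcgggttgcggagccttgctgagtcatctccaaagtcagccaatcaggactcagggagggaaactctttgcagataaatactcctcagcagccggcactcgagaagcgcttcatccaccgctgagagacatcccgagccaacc

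Of the 59 members, 43 had an entry in the RefSeq promoter table, and Ccl5 and Ccl2 were not among them. The NF-κB pattern was present in 6 of the 43 promoters (14.0%), against 1.62% of 27025 promoters of the same length, 1 per gene. The 6 were Ccl9, Cxcl1, Cxcl2, Cxcl3, Ccl20 and Ccr3, and they did not all go in the same direction between the libraries. Ccl9 was higher, as were Cxcl2 and Ccr3, both under 1 FPKM in each library, and Cxcl1 was lower. Cxcl3 had too few reads, and Ccl20 was listed at 0 in both. Cxcl1 carried the pattern on both strands, at 71 and 89 bases upstream of the start, and Ccl9 carried it 35 bases upstream on the opposite strand. The interferon pattern was present in Cxcl10, 213 bases upstream, and in Ccl19 and Cxcl14, 3 of 43 promoters (6.98%) against 3.49% of all. TATAAA was found in 10 of the 43 (23.3%) against 8.88% of all, among them Cxcr4 at 30 and Ccl9 at 92 bases upstream. The patterns do not overlap each other in the sequences shown, and a match to letters is a description, not evidence of binding.

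CCR2 is the receptor that draws inflammatory monocytes out of bone marrow and into tissue. The ligands listed for it here were all weakly expressed and all higher in Alb-Cre liver. Of them, Ccl7, Ccl8 and Ccl12 were under 1 FPKM in both libraries, where 73.4% of all rows with enough reads were higher. Ccl2 (MCP-1, chromosome 11, 82035571 to 82037453) had 0.779 FPKM in control and 2.17 in Alb-Cre liver (log2 ratio 0.84), about 77 and 243 reads. Ccl7 had 0.143 and 0.333 FPKM, Ccl8 had 0.114 and 0.327, and Ccl12 had 0.0212 and 0.135, of which the control value of Ccl12 stands for about 1 read. The receptor gene Ccr2 (chromosome 9, 124101950 to 124113557) had 0.288 and 1.13 FPKM (log2 ratio 0.72), about 114 and 505 reads. Without the added 1 FPKM, which damps ratios at these levels, Ccr2 was 3.90-fold and Ccl2 2.79-fold higher. Ccl2, Ccl7, Ccl12 and Ccl8 lie together with Ccl11 and Ccl1 on chromosome 11 from 82035571 to 82305690. Ccl11 (eotaxin) and Ccl1, with 0.0382 and 0.0209 FPKM and with 0 and 0.0218 FPKM, had too few reads to compare.

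CCR1, carried by macrophages, monocytes and effector lymphocytes, is a receptor of the Ccl3, Ccl5, Ccl6 and Ccl9 products. Ccr1 had 0.0395 FPKM in control and 0.250 in Alb-Cre liver, about 14 and 97 reads, a plain ratio of 6.32. Ccr1, Ccr2, Ccr3, Ccr9, Cxcr6 and Xcr1 lie near each other on chromosome 9, and each of these 6 was higher in Alb-Cre liver, at plain log2 ratios from 0.41 for Ccr9 to 2.66 for Ccr1. They were nonetheless quiet, with control values from 0.0395 FPKM for Ccr1 to 0.422 for Cxcr6. All but Ccr2 were under 1 FPKM in both libraries, where 73.4% of all rows with enough reads were higher.

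In the CXCL12 axis the ligand was lower and both receptors were higher in Alb-Cre liver. Direction varied with level over the whole table. Of all rows with enough reads and a mean of 100 FPKM or more, 36.2% were higher. Of those under 1 FPKM in both libraries, the class of Cxcr7, 73.4% were higher. Cxcr4 (chromosome 1, 128588199 to 128592293), the signalling receptor of CXCL12 found on most leukocytes, had 0.326 FPKM in control and 1.86 in Alb-Cre liver (log2 ratio 1.11), about 54 and 346 reads and a plain ratio of 5.70. Cxcr7, the scavenging receptor of the same ligand now called Ackr3, had 0.191 and 0.549 FPKM. Cxcl12 itself was 0.760 times the control value. Cxcr4 therefore went from the 4th to the 2nd place among receptors while its ligand remained the most abundant member of the family.

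The ligands induced by interferon, which CXCR3 on activated T and NK cells reads, did not move as one. Cxcl9 had 5.12 FPKM in control and 7.72 in Alb-Cre liver (log2 ratio 0.51), and Cxcl10 had 3.48 and 6.23 (0.69). Cxcl11, annotated by GENCODE as a polymorphic pseudogene in this reference strain, went the other way, with 1.501 and 0.886 FPKM (-0.41). These genes are neighbours on chromosome 5, from 92321347 to 92365485. Cxcr3 had 0.213 and 0.857 FPKM, a plain ratio of 4.02 and about 45 and 204 reads.

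Ligands and receptor of neutrophil recruitment differed little. Besides Cxcl1, the CXCR2 ligand Cxcl2 had 0.176 FPKM in control and 0.249 in Alb-Cre liver. Cxcl5, Cxcl15 and Cxcl3 had too few reads, with no value above 0.0755 FPKM. Cxcr2 had 0.898 and 1.03 FPKM, a plain log2 ratio of 0.20 and the smallest of the 16 receptor rows with enough reads, and Cxcr1 stood at 0 in control liver and at 0.0595 FPKM in Alb-Cre liver. Of the 9 neutrophil markers 8 were found, all 8 were higher in Alb-Cre liver, and their summed FPKM was 4.47 and 21.3. All but S100a8 and S100a9 were under 1 FPKM in both libraries, where 73.4% of all rows with enough reads were higher. Most of the marker sum came from S100a9, with 1.67 and 8.55 FPKM, and S100a8, with 2.01 and 9.60 FPKM. Both are genes of calcium-binding proteins abundant in neutrophils.

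The remaining ligands with enough reads that were higher are given with their receptors, most of them at levels where most rows of the whole table were higher too. Cxcl16, the membrane-bound ligand of CXCR6 on liver NKT and T cells, had 3.57 FPKM in control and 5.72 in Alb-Cre liver (log2 ratio 0.56), and Cxcr6 had 0.422 and 0.760. Ccl19, a ligand of CCR7 on dendritic cells and naive T cells, had 1.86 and 4.02 FPKM (0.81), and Ccr7 had 0.143 and 0.697, a plain ratio of 4.87. Cxcl14, a ligand whose receptor use is debated, had 0.744 and 1.73 FPKM (0.65), and Ccl24, an eosinophil attractant read by CCR3, had 0.980 and 1.61 (0.40). The B cell attractant Cxcl13 had 0.583 and 0.977 FPKM, and Xcl1, a ligand made by NK and CD8 T cells, had 0.418 and 0.761. Ccl22, a dendritic cell ligand of CCR4, had the largest plain ratio among members with enough reads, 8.63, from 0.0276 FPKM in control and 0.238 in Alb-Cre liver, about 7 and 73 reads.

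Cx3cr1, the fractalkine receptor of monocytes and some macrophages, had 0.140 FPKM in control and 0.474 in Alb-Cre liver, and its ligand gene Cx3cl1 had 0.223 and 0.329. Xcr1, carried by cross-presenting dendritic cells, had 0.106 and 0.230. Ccr3, Cxcr5, Ccr6, Ccr10 and Ccr9, the other receptors with enough reads, lay between 0.0572 and 0.142 FPKM in control liver and between 0.0761 and 0.263 in Alb-Cre liver. Each was higher in the latter, at levels that stand for about 14 to 57 control reads. Like Cx3cr1, Cx3cl1 and Xcr1, they were under 1 FPKM in both libraries, where 73.4% of all rows with enough reads were higher.

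The 5 members that were lower in the Alb-Cre library among rows with enough reads were all ligands: Cxcl12, Cxcl1, Cxcl11, Ccl27a and Ccl25. Ccl27a, a skin-homing ligand read by CCR10, had 6.51 FPKM in control and 5.60 in Alb-Cre liver (log2 ratio -0.19). Ccl25, a ligand of CCR9 known from thymus and gut, had 3.30 and 3.20 FPKM (-0.03), and its sign turned to 0.06 with both libraries rescaled to an equal sum and to 0.10 with centred ratios. Both share exons with a gene on the opposite strand, and the sources used here do not give whether the counting used strand. The partner of Ccl27a, Il11ra1, had 11.7 and 10.2 FPKM, and that of Ccl25, Elavl1, had 7.16 and 6.95 FPKM, so reads of these pairs may not be separable. Cxcl10 overlaps Art3 (0.940 and 1.56 FPKM) and Cxcl16 overlaps Zmynd15 (1.18 and 1.69 FPKM) in the same way. So does the receptor gene Cxcr5, at 0.138 and 0.226 FPKM, with Bcl9l, which was far more abundant at 10.5 and 6.74 FPKM. Near-identical copies add a further limit: 57.2% of the 50-base words of Ccl19 transcripts and 53.3% of those of Ccl27a also occur in transcripts of other genes, and the deposited table places Ccl19 on an unplaced contig of chromosome 4. Values of Ccl19, Ccl27a, Ccl27b and the Ccl21 rows are therefore uncertain.

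A further 18 rows had too few reads for the authors' test, none above 0.113 FPKM in either library. Ccl20, Ccl21b,Ccl21c, Ccl21c, Ccl26 and Ccl27b were listed at 0 in both libraries. Ccl1, Cxcl17, Cxcl3, Ccr8 and Cxcr1 were listed at 0 in the control library alone, with Alb-Cre values from 0.0146 FPKM for Ccr8 to 0.0595 for Cxcr1. Ccl21a,Gm1987, Ccl17, Cxcl15, Ccl11, Cxcl5, Ccl28, Ccr1l1 and Ccr4 had values above 0 in both libraries. Nothing is read from the ratios of these rows.

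**Figure D2:**
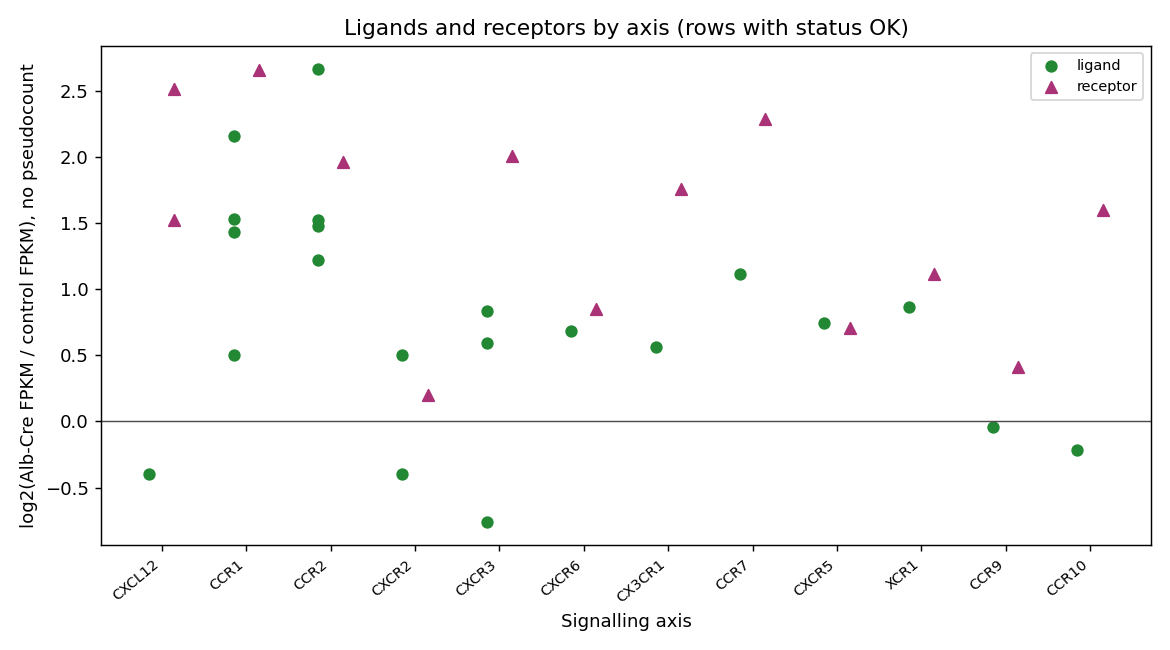
Log2 ratio of Alb-Cre over control FPKM without an added value (vertical axis) for ligands (green circles) and receptors (purple triangles) of 12 signalling axes, with rows that had enough reads only. All receptor points lie above 0, from 0.20 for Cxcr2 to 2.66 for Ccr1, while ligand points of the CXCL12, CXCR2, CXCR3, CCR9 and CCR10 axes also fall below it.

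Set against each other, receptors were higher in the Alb-Cre library in 16 of 16 rows with enough reads and ligands in 20 of 25, where 48.7% of all 14868 such rows were higher. The median plain log2 ratio was 1.32 over the receptors, 0.84 over the ligands and -0.01 over all these rows. Summed receptor FPKM was 4.67 in control and 11.6 in Alb-Cre liver, a ratio of 2.48. With 1 FPKM added, the medians over measured rows were 0.51 for 15 ligands, 0.68 for 4 receptors and -0.06 for all rows, but 3 of those 4 receptors passed the minimum through the Alb-Cre library alone.

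Over the whole table the share of higher rows varied with level. Among rows with enough reads and under 1 FPKM in both libraries, 73.4% of 3462 were higher, with a median plain log2 ratio of 0.50, whereas 38.1% of the 10524 rows at 1 FPKM or more in both were higher. All 22 members in the weak class were higher, with plain log2 ratios from 0.41 to 3.11. In that class 10 ligands had a median plain log2 ratio of 1.26 and 12 receptors a median of 1.32, so ligands and receptors of like level had medians close together. Of the 12 members at 1 FPKM or more in both libraries, 8 were higher. By mean level, 13 of 13 members were higher below 0.3 FPKM (75.7% of all rows there) and 11 of 11 from 0.3 to 1 FPKM (71.8%). The counts were 6 of 7 from 1 to 3 FPKM (59.1%), 5 of 7 from 3 to 10 (40.6%), 1 of 2 from 10 to 100 (30.7%) and 0 of 1 above (36.2%). No test was made of these shares, since genes are not replicates and members vary together.

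**Figure D3:**
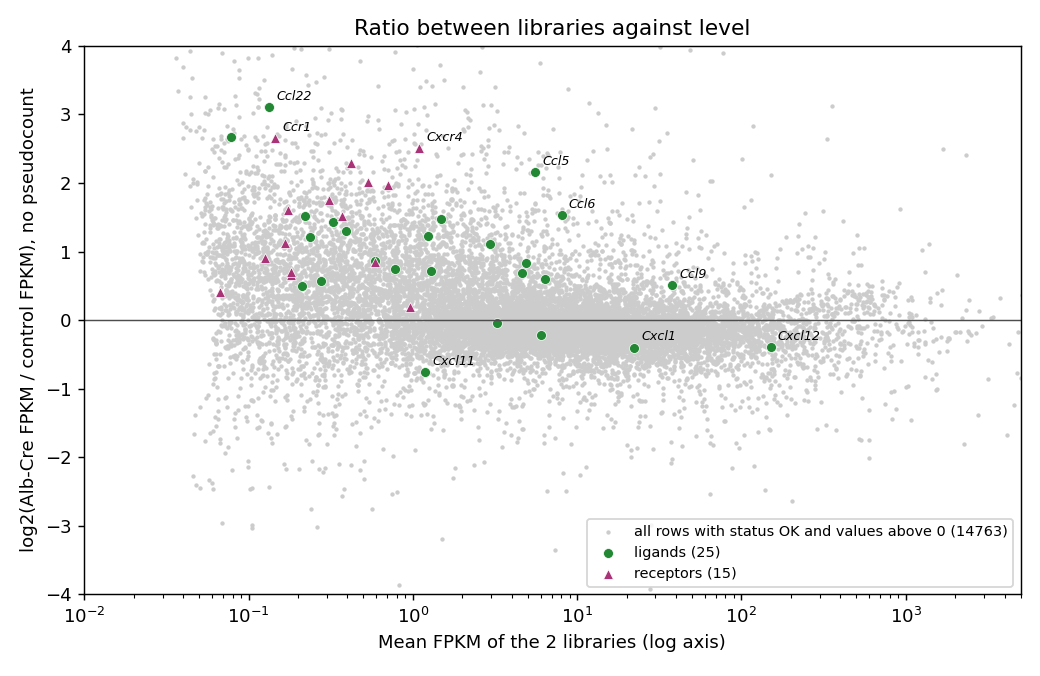
Log2 ratio of Alb-Cre over control FPKM without an added value (vertical axis) against the mean FPKM of the libraries (log axis) for 14763 rows with enough reads and values above 0 (grey), the 25 ligands (green circles) and 15 of the 16 receptors (purple triangles); 115 grey rows lie outside the axes. The grey cloud tilts upward at low levels, and the members sit mostly in its upper part, with 5 ligands, Cxcl12, Cxcl1 and Cxcl11 among them, below 0.

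In the authors' deposited table none of the 59 members was called different, where 0.673% of rows with enough reads were called. The lowest q-value of the family in the authors' deposited table was 0.579, that of Ccl6. The authors' deposited table gives an unadjusted p-value under 0.05 to 6 members, namely Ccl6 (0.0167), Cxcr4 (0.0186), Ccl5 (0.0309), Ccr2 (0.0369), Ccr1 (0.0399) and Ccr7 (0.0448). All 6 were higher in Alb-Cre liver and made up 14.6% of the 41 members with enough reads, beside 5.38% of all such rows. These values compare 2 libraries and hold no spread between mice.

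Genes that act with chemokines were described from lists. Of 14 names listed for family members and relatives outside the name rule, 10 were found. The names not found, Ackr1, Ackr2, Ackr3 and Ackr4, are newer names of genes present as Darc, Ccbp2, Cxcr7 and Ccrl1. Of the 10, 9 were measured, with a median log2 ratio of 0.53. Among these 9, 2 were 2-fold higher or more and 0 lower, where 3.75% and 1.83% of all measured rows were. Of the 9, 3 reached 1 FPKM in the Alb-Cre library alone and so had to be higher, Ccrl2 among them. Mif, a cytokine that also binds CXCR2 and CXCR4, had 363 FPKM in control and 752 in Alb-Cre liver (log2 ratio 1.05), and Rarres2, the hepatocyte-made chemoattractant chemerin, had 833 and 1692 (1.02). Both lie above every ligand of the family in level. Ccrl2, a non-signalling chemerin-binding receptor, had 0.582 and 1.51 FPKM. Of 40 genes of chemotaxis signalling, 34 were measured, of which 6 were 2-fold higher or more and 0 lower; the median was 0.43. Here 9 of the 34 passed through the Alb-Cre library alone, Pak1 among them, and such genes had to be higher. The largest ratios were those of the kinase gene Pak1 (0.547 and 4.82 FPKM, log2 ratio 1.91), the leukocyte actin regulator Coro1a (2.70 and 7.97, 1.28) and the integrin gene Itgb2 (1.65 and 4.80, 1.13). Of 22 NF-κB and interferon regulators of chemokine genes, 17 were measured and 0 were 2-fold higher or lower, with a median of 0.25; 2 of the 17, Relb among them, passed through the Alb-Cre library alone. Irf8, Nfkb2 and Relb had the largest ratios, at 2.38 and 5.21 FPKM, 2.48 and 5.38 FPKM, and 0.780 and 2.18 FPKM.

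Markers of the cells that carry these receptors differed between the libraries in the same direction. Summed FPKM of 9 Kupffer cell markers was 162 in control and 376 in Alb-Cre liver, with 9 of 9 higher. That of 8 monocyte and recruited macrophage markers was 48.1 and 134.7, with 8 of 8 higher. Dendritic cell markers summed to 2.48 and 5.15 FPKM (5 of 5 higher), T cell markers to 2.60 and 6.51 (7 of 8 higher, Cd4 lower), NK cell markers to 1.70 and 5.40 (7 of 7) and B cell markers to 1.91 and 4.17 (4 of 4). The T, NK and B cell markers were each under 1 FPKM in control liver. Of them, 3 T, 3 NK and 2 B cell markers reached 1 FPKM in the Alb-Cre library alone and so had to be higher. The others were under 1 FPKM in both libraries, where 73.4% of all rows with enough reads were higher. Little is therefore read from these counts. The leukocyte sums, with the neutrophil sum given above, differed by ratios from 2.08 for dendritic cell markers to 4.76 for neutrophil markers. That of the summed receptors was 2.48. Sinusoidal endothelial markers summed to 74.0 and 102 FPKM (6 of 7 higher) and stellate cell markers to 107 and 179 (7 of 7). Bile duct markers summed to 33.7 and 33.8 (3 of 5) and hepatocyte markers to 8891 and 6860 (1 of 5). Most of the bile duct sum came from Spp1, with 30.3 and 30.5 FPKM. Most of the hepatocyte sum came from Ttr, with 6489 and 3627 FPKM, while Tat was higher, with 874 and 1883. No marker found was listed at 0 in either library, and Ly6g was not found. The part of these cells in the chemokine and receptor values was not tested.

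**Figure D4:**
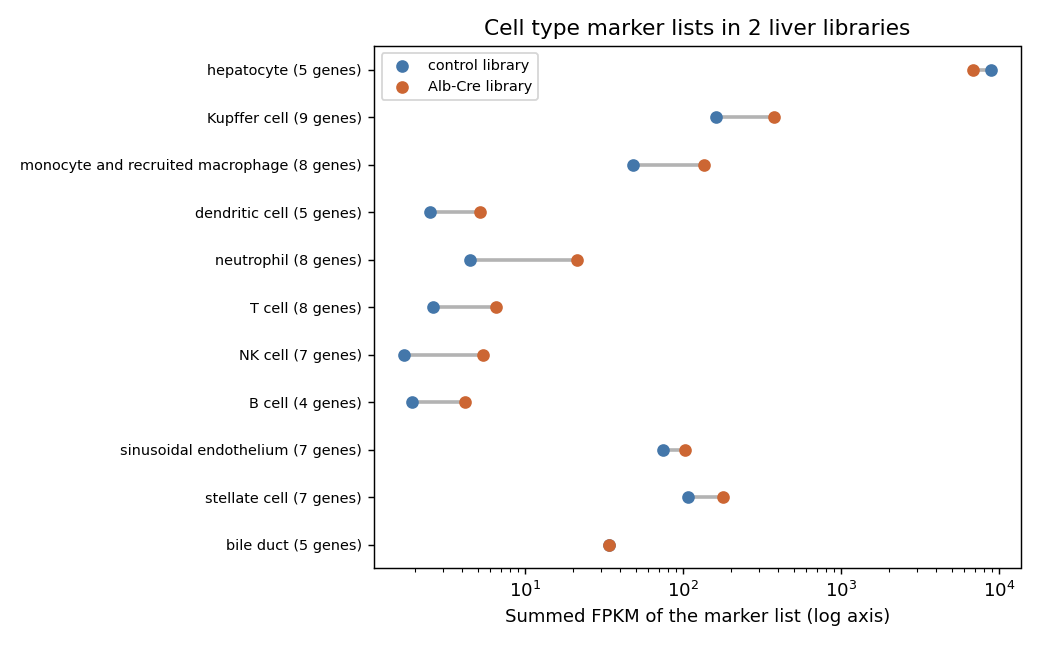
Summed FPKM of each marker list (log axis) in the control library (blue) and the Alb-Cre library (orange), with the number of genes found in brackets. The leukocyte lists lie to the right in the Alb-Cre library, the neutrophil list by the widest margin, from 4.47 to 21.3, while the hepatocyte list lies to the left and the bile duct list is level.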

How the data were processed

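RNA from pooled livers was sequenced as 1 library per genotype, so no group has a replicate and no p-value was computed. FastQC, TopHat2 2.0.8, Cuffdiff 2.1.1 and the build mm10 are named, without role or order, in the submitters' processing notes. What the authors deposited is a Cuffdiff gene table with FPKM per gene and library and with their p-value and q-value, per the file headers. The sources used here give no settings, annotation, strand or read totals. A row had enough reads if its status was OK (41 of the 59 members).

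The difference was log2((Alb-Cre FPKM + 1)/(control FPKM + 1)), which understates ratios of weak rows; a plain ratio has nothing added. Its 2-fold limit is one of size. The deposited fold changes were not used. The functions were checked for coding errors on a simulated table with known, noise-free changes in abundant rows. That check does not cover weak rows. The worth of 1 read was the median of FPKM times length in the first step (below 0.0118) of rows with status NOTEST and 1 GENCODE transcript over 800 bases; that bound was set after the values were seen. If values were scaled by library size, the Alb-Cre library was about 1.13 times as deep. Positions are GENCODE vM21 on mm10, counted from 1, and neighbours in a cluster lie within 250 kb. Promoters are RefSeq's on GRCm38.p6.

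Members and lists were chosen with earlier results of these data known. All members at 1 FPKM or more in a library are named, except 1 that is not reported here and enters counts, sums and medians only, with the 3 largest ratios of each pathway list; other members were named after their values were seen, and marker lists are given by counts and sums. The alternatives were pseudocounts of 0.1 and 5 FPKM, other minimums and limits, 2 other scalings, other statuses, the mean, a q-value limit of 0.01 and, added after the data were seen, no pseudocount with no minimum. Computation used Python 3.11.15, pandas 2.3.3, numpy 2.4.6 and matplotlib 3.10.9.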

Additional observations from a re-analysis of the deposited data

How the results depend on the processing

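No paired analysis was possible because each genotype is 1 library. No replicate could be left out for the same reason. The count of 3 family members at least 2-fold higher (2 ligands, 1 receptor) was 7 (5 and 2) with a pseudocount of 0.1 FPKM, 0 (0 and 0) with 5 FPKM, 9 (6 and 3) at a limit of 1.5-fold, 0 (0 and 0) at 4-fold and 20 (11 and 9) with no pseudocount and no minimum. The receptor count was 0 with the minimum applied to the control library and 0 with a minimum of 5 FPKM. The count of members 2-fold lower was 0 under each of these. Over all rows the count of 428 higher was 769 and 178 with pseudocounts of 0.1 and 5 FPKM, 251 with the minimum in the control library, 283 with a minimum of 5 FPKM, 1012 and 117 at limits of 1.5-fold and 4-fold and 1746 with no pseudocount and no minimum. The count of 209 lower was 661 and 45 at those limits and 389 with no pseudocount and no minimum.

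The ligand median of 0.51 was 0.66 and 0.31 with pseudocounts of 0.1 and 5 FPKM, 0.32 with no minimum, 0.62 with libraries rescaled to the same sum, 0.65 with centred ratios and 0.84 with no pseudocount and no minimum. The receptor median of 0.68 was 1.29, 0.24, 0.29, 0.81 and 1.32 in the same order, rescaling aside, which moved it by under 0.1. Centring on 4964 genes (at 10 FPKM or above in each library) adds 0.13 to each log2 ratio, and rescaling adds 0.12 before the pseudocount. The share of higher rows among all that passed 2-fold was 67.2%, 75.1% after rescaling and 78.0% after centring. Ccl5, Ccl6 and Cxcr4 were under 2-fold with a pseudocount of 5 FPKM, at log2 ratios of 0.9999, 0.89 and 0.36. Ccl19, Ccl2, Ccr2 and Cxcl14 passed 2-fold with a pseudocount of 0.1 FPKM and with none. A change of sign occurred for Ccl25 alone among the 19 members. Rows under about 10 estimated reads in the control library, such as Ccl12 and Ccl22, are limited by depth, and pooling leaves no estimate of how single mice differ.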
